A study of Capra hircus with 3 samples.

Results

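Molecular chaperones of the Hsp40, Hsp70, Hsp90 and chaperonin families were followed in the longissimus dorsi, a long back muscle, of goats (Capra hircus) of 3 ages. The genes were chosen by the product text of the deposited FPKM table (fragments relative to the length of the gene and the size of the library), namely every entry whose text began with the Hsp40 (DnaJ), Hsp70, Hsp90, Hsp105, Hsp60 or Hsp10 name, with chaperonin containing TCP1, or with BCL2-associated athanogene. This rule held 73 of 24689 entries. Each age gave 1 library, from kids of 2 months, youths of 9 months and adults of 24 months. The sources used here give no breed, sex, treatment or pooling of animals. With 1 library per stage nothing here has a replicate check, no test between stages was possible, and each value describes a library rather than an age.

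Chaperones bind unfolded proteins and help them fold or reach their place in the cell. Hsp70 proteins do this in cycles of ATP hydrolysis that Hsp40 proteins start and that Hsp110 and BAG proteins reset by exchanging the nucleotide. Hsp90 acts later, on clients that are nearly folded. The chaperonins are closed barrels, CCT in the cytosol (where actin and tubulin are clients) and Hsp60 with its Hsp10 lid in mitochondria. The endoplasmic reticulum (ER) and the mitochondrion hold Hsp70 and Hsp90 forms of their own. In striated muscle these systems also serve the folding of myosin and the turnover of filament proteins at the Z-disc.

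The read totals that the FPKM values imply came to 15829474 (kid), 14920689 (youth) and 18399385 (adult). The whole reads behind each entry were recovered in the same way, and ratios are given with exact 95% intervals of those reads, which cover counting error only. "Beyond counting error" means that this interval left out 1. More reads narrow the interval, so the shares beyond counting error depend on how abundant the entries are. The protocol label names mammary tissue while the tissue label names longissimus dorsi, and the 5 mammary markers (CSN2, CSN3, LALBA, CSN1S1 and BTN1A1) were listed at 0 in all 3 libraries. The muscle genes ACTA1, CKM, MYLPF, TNNT3 and DES together made up 45743, 53394 and 59044 FPKM in kid, youth and adult.

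Of the 73 genes, 63 averaged 1 FPKM or more and entered the comparisons. By the usual place of their proteins, 40 of these belong to the cytosol and nucleus, 13 to the ER and 10 to the mitochondrion. The other 10 were nearly silent. DNAJC5B, DNAJC5G, DNAJB7 and DNAJB13 were listed at 0 throughout, and the other 6 reached a mean of at most 0.658 FPKM (CCT6B). Among these 6 were HSPA4L, with 14, 45 and 22 reads in kid, youth and adult, and 2 copies described as CCT6A pseudogenes. All 73 members together held 0.618%, 0.681% and 0.588% of the summed FPKM in kid, youth and adult. The 12 most abundant made up 60%, 62.6% and 61.2% of the members' sum.

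**Figure D1:**
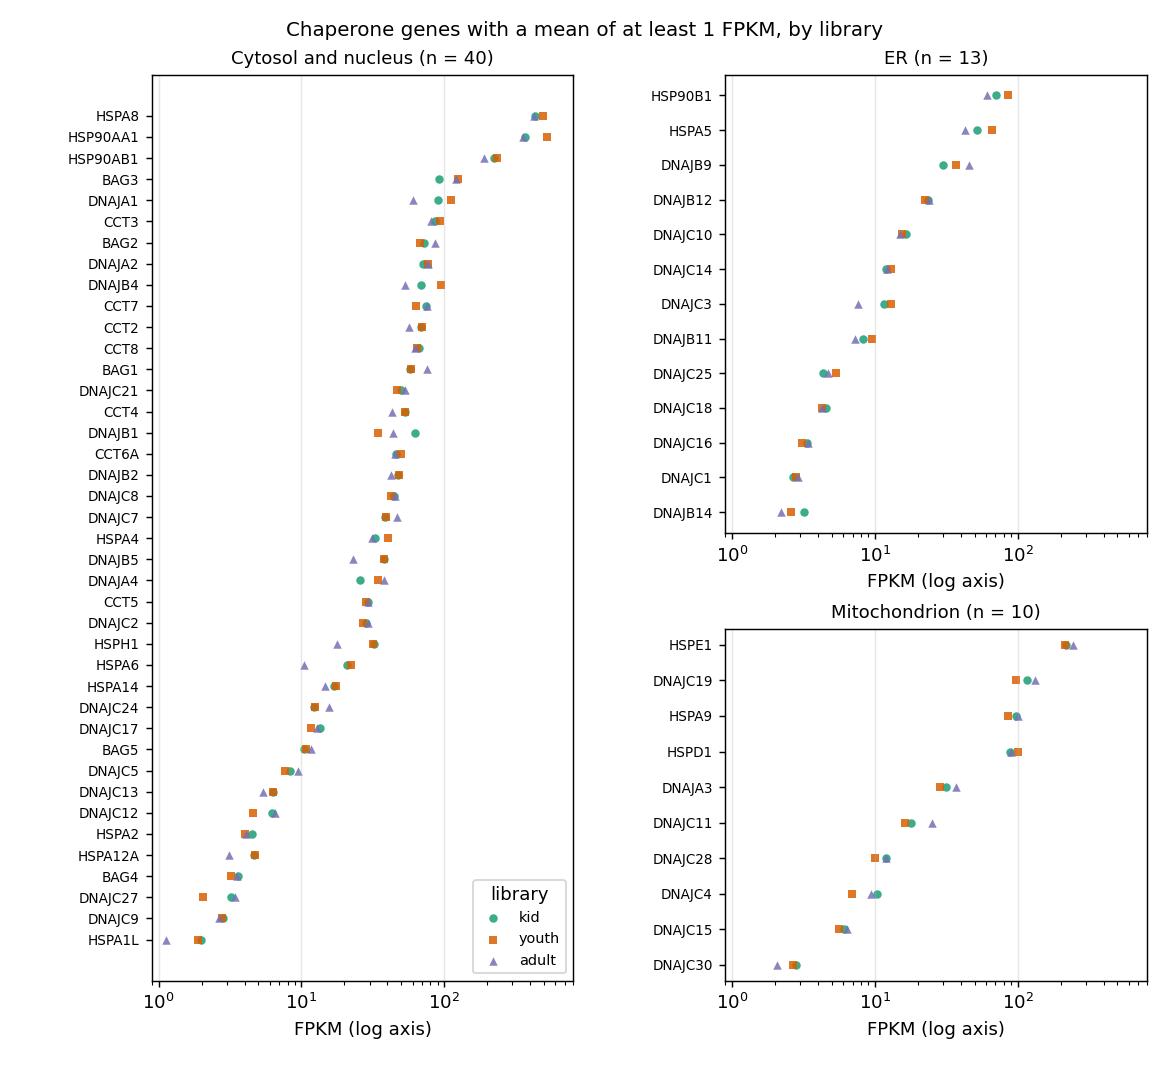
FPKM (log axis) of the 63 chaperone genes that averaged 1 FPKM or more, in 3 panels by the place of the protein, with 1 point per library (kid, youth, adult) and genes ordered by mean. HSPA8 and HSP90AA1 lead the cytosolic panel at means of 449 and 416 FPKM, HSP90B1 the ER panel at 72.6 and HSPE1 the mitochondrial panel at 226.

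The 2 most abundant members were cytosolic and differed in how far the youth library stood apart. HSPA8, the constitutive Hsp70, was at 432 FPKM in the kid library, 493 in youth and 422 in adult. HSP90AA1, the Hsp90 form that stress induces, was at 370, 522 and 357 FPKM. HSP90AB1, the constitutive Hsp90 form, was at 223, 235 and 189 FPKM. Each of the 3 was highest in youth. In whole muscle such a difference in level may be one of cell numbers or of RNA per cell, and fewer cells of a type and less RNA per cell cannot be told apart. Between youth and kid, HSP90AA1 was 1.41-fold higher (interval 1.38 to 1.44), HSPA8 1.14-fold (1.12 to 1.17) and HSP90AB1 1.05-fold (1.02 to 1.08). From youth to adult all 3 stood lower, HSP90AA1 1.46-fold lower (1.43 to 1.49), HSP90AB1 1.24-fold lower (1.20 to 1.28) and HSPA8 1.17-fold lower (1.14 to 1.19). The ratio of HSP90AA1 to HSP90AB1, both in FPKM, was 1.66 in kid, 2.22 in youth and 1.89 in adult. Adult and kid were close for HSPA8 and HSP90AA1, and the sign of those differences (-0.04 and -0.05 on the log2(FPKM + 1) scale) turned to 0.10 and 0.09 when the libraries were scaled by the median of ratios.

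Hsp110 proteins are relatives of Hsp70 that serve it as nucleotide exchange factors, and HSPH1 stood far lower in the adult library than in the others. HSPH1 was at 32.4 FPKM in the kid library, 31.8 in youth and 17.7 in adult. Kid and youth lay within counting error of each other, and adult was 1.79-fold lower than youth (1.66 to 1.94) and 1.83-fold lower than kid (1.69 to 1.98). HSPA4 was at 32.6, 40.1 and 31.0 FPKM, 1.29-fold below youth in the adult library (1.22 to 1.36) and within counting error of kid, where its sign turned from -0.07 to 0.07 with median-of-ratios scaling. The level of HSPA8 over that of HSPH1 was 13.4 in kid, 15.5 in youth and 23.8 in adult.

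HSPA6, which in humans is a strictly stress-inducible Hsp70, had the widest difference among the compared members. It was at 20.9 FPKM in the kid library, 22.1 in youth and 10.4 in adult, from 781, 777 and 451 reads. The adult library stood below both others, 2.12-fold below youth (1.89 to 2.39) and 2.01-fold below kid (1.79 to 2.27). HSPA6, HSPA1L, HSPA2 and HSPA8 resemble each other and the abundant inducible Hsp70 entries outside the rule, and no source used here tells how multiply matching reads were counted, so the value of any 1 of them is uncertain. The same holds for HSP90AA1 and HSP90AB1, for CCT6A with its copies, and for DNAJA1, which has a similar copy. HSPA12A, a distant Hsp70 relative, was at 4.67, 4.71 and 3.13 FPKM and was 1.5-fold below youth in the adult library (1.29 to 1.75). Of 8 Hsp70 genes compared, ER and mitochondrial forms included, 6 were lower in adult than in youth beyond counting error, and HSPA9 was the 1 that was higher, where 27.0% of all entries were lower and 22.3% higher.

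Hsp40 proteins hand clients to Hsp70, and the cytosolic ones differed in which library was lowest. DNAJA1, a farnesylated partner of HSPA8, was at 90.9 FPKM in the kid library, 111 in youth and 60.8 in adult. DNAJB4 was at 68.6, 95.5 and 52.7 FPKM. DNAJB5 was at 37.6, 37.8 and 23.0 FPKM. All 3 were lowest in adult, and the first 2 were highest in youth. From youth to adult, DNAJA1 was 1.82-fold lower (1.72 to 1.93), DNAJB4 1.81-fold lower (1.75 to 1.88) and DNAJB5 1.64-fold lower (1.5 to 1.80).

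DNAJA2, the close relative of DNAJA1, was nearly level at 70.6, 77.4 and 77.0 FPKM in the same order. DNAJA1 over DNAJA2 was 1.29 in kid, 1.43 in youth and 0.790 in adult, so that their order was reversed in the adult library. DNAJA4 stood the other way at 25.8, 34.1 and 37.7 FPKM, 1.46-fold higher in adult than in kid (1.31 to 1.63). DNAJB1, the main stress-inducible Hsp40, had a profile shared by none of these. It was at 62.2 FPKM in the kid library, 34.4 in youth and 43.7 in adult, with kid above both others. Youth was 1.81-fold below kid (1.68 to 1.94), and adult was 1.27-fold above youth (1.18 to 1.37).

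DNAJC12 was at 6.22, 4.56 and 6.52 FPKM, and DNAJC27, which carries a Rab-like GTPase domain, at 3.21, 2.04 and 3.41. Both were lowest in youth, with the adult library 1.43-fold (1.09 to 1.89) and 1.68-fold (1.37 to 2.05) above it. Over the 18 cytosolic Hsp40 genes compared, the median adult minus youth difference was 0.12 on the log2(FPKM + 1) scale, beside -0.02 over all entries. Of these 18, 7 were higher and 5 lower beyond counting error, where 22.3% of all entries were higher and 27.0% lower. Another 13 cytosolic members, Hsp40 and Hsp70 genes with means of 1.67 to 50.1 FPKM, all lay within counting error in youth against kid. From youth to adult their differences ran from -0.44 (HSPA1L) to 0.29 (DNAJC24), and 4 of the 13 were higher and 4 lower beyond counting error, beside the same shares of all entries.

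**Figure D2:**
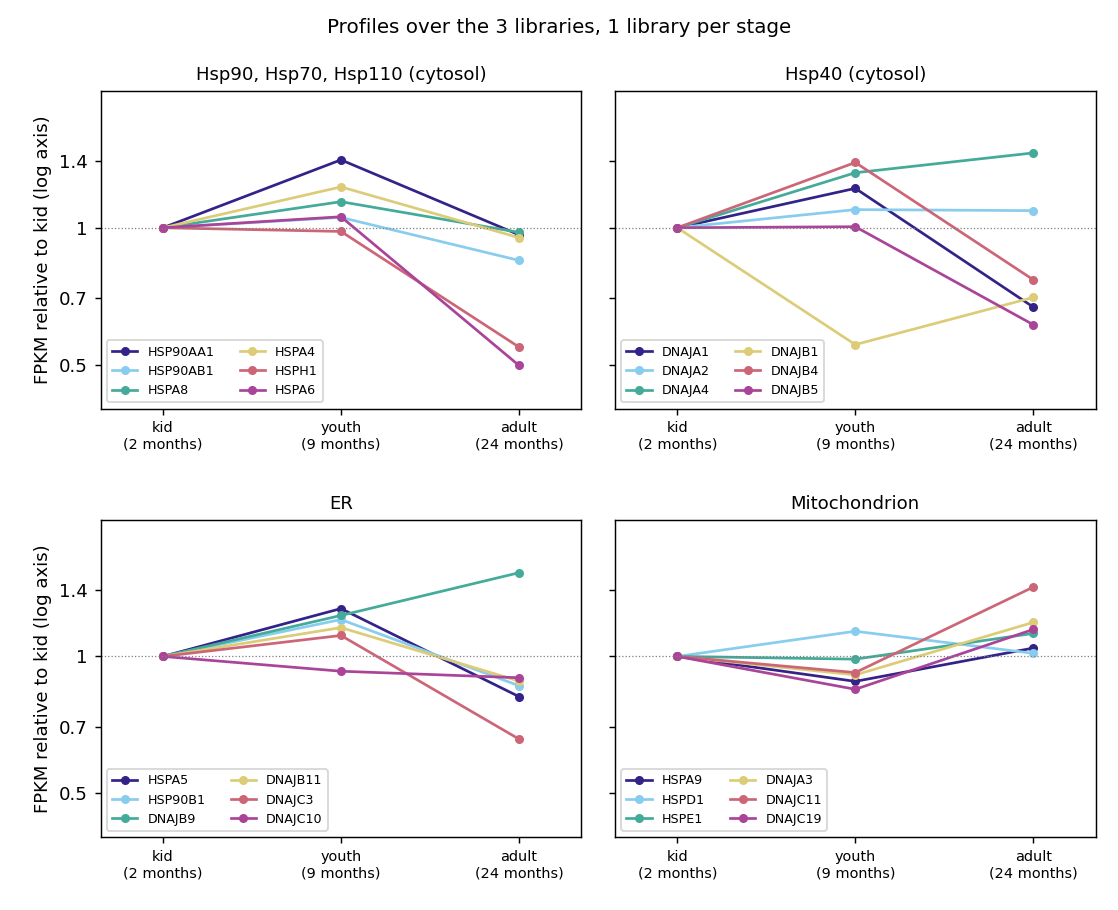
FPKM relative to the kid library (log axis) over kid, youth and adult for 6 genes each of the cytosolic Hsp90, Hsp70 and Hsp110 families, the cytosolic Hsp40 family, the ER and the mitochondrion, with 1 library per point. HSPH1 and HSPA6 are low in the adult library alone, HSP90AA1 and DNAJB4 are highest in youth, DNAJB1 is lowest in youth, and DNAJC11 is highest in adult.

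Immediate early genes respond within minutes to handling and activity, as do several of these chaperones to stress, so their values are set beside. Of 8 such genes, 6 were lower and 1 higher in youth than in kid beyond counting error, where 26.9% of all entries were lower and 11.5% higher. From youth to adult 4 were lower and 2 (JUNB and EGR1) higher, where 27.0% and 22.3% of all entries were. Their summed level was 878.7, 686.5 and 460.4 FPKM in kid, youth and adult, and each of the 8 was above 0 in every library. FOS stood at 149, 61.0 and 35.7 FPKM, and EGR1 at 27.6, 5.78 and 13.5. EGR1 alone of the 8 was highest in kid and lowest in youth, as was DNAJB1. FOS, FOSB, ATF3, NR4A1 and IER2 were lowest in adult, JUN was highest in youth, and JUNB was lowest in youth but highest in adult. Their part in the chaperone differences was not tested.

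CCT is a double ring built of different subunits in equal number, and its transcripts were unequal but stayed close between libraries. Of the 8 genes under the rule, 7 were compared, and TCP1, the remaining ring subunit, is not named by the rule. CCT3 was the highest at 86.1, 93.9 and 80.1 FPKM in kid, youth and adult, and CCT5 the lowest at 29.1, 28.1 and 29.1. The highest subunit thus stood 2.96-fold, 3.35-fold and 2.75-fold above the lowest. CCT7 was at 74.7, 63.1 and 75.8 FPKM, CCT2 at 69.2, 69.6 and 57.0, and CCT8 at 66.6, 63.9 and 62.4. CCT4 was at 53.2, 53.2 and 43.0 FPKM and CCT6A at 45.6, 49.4 and 45.0. From youth to adult, CCT2, CCT3, CCT4 and CCT6A were lower beyond counting error, and CCT7 was higher, 1.20-fold (1.13 to 1.28). Over all entries 27.0% were lower and 22.3% higher. None of the 7 differed by 1.5-fold in any comparison, and the widest ratio was that of CCT4, 1.24-fold below youth in the adult library (1.16 to 1.33). Outside the rule, TCP1 was at 71.8, 71.1 and 66.8 FPKM. The sum over the 8 CCT genes was 425.3 FPKM in the kid library, 421.8 in youth and 392.9 in adult.

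BAG proteins bind the Hsp70 ATPase domain, and BAG3 links it to autophagy of damaged filament proteins in muscle. BAG3 was the most abundant at 92.5 FPKM in the kid library, 124 in youth and 120 in adult. It was 1.34-fold higher in youth than in kid (1.29 to 1.39), and adult and youth lay within counting error. BAG1, which couples Hsp70 to the proteasome, was at 57.8, 58.5 and 76.2 FPKM, and BAG2, an inhibitor of the CHIP ubiquitin ligase, at 71.7, 68.1 and 86.7. Both stood out in the adult library instead, 1.30-fold (1.22 to 1.39) and 1.27-fold (1.19 to 1.36) above youth. BAG4 was at 3.58, 3.20 and 3.56 FPKM and BAG5 at 10.5, 10.8 and 11.6, each within counting error in all 3 comparisons. The sum over the 5 BAG genes was 236.1, 264.4 and 297.8 FPKM in kid, youth and adult.

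HSPA5, HSP90B1, DNAJC3 and DNAJB11 of the ER were highest in youth and lowest in adult, while DNAJB9 and DNAJC10 had other orders. HSPA5, the ER Hsp70 also called BiP, was at 52.1 FPKM in the kid library, 66.4 in youth and 42.5 in adult. HSP90B1, the ER Hsp90 also called GRP94, was at 71.0, 85.6 and 61.2 FPKM. DNAJC3, a BiP partner that also restrains the kinase PERK, was at 11.6, 12.9 and 7.63 FPKM. All 3 had the order youth, kid, adult, although for DNAJC3 youth and kid lay within counting error. From youth to adult, HSPA5 was 1.56-fold lower (1.44 to 1.70), HSP90B1 1.4-fold lower (1.33 to 1.47) and DNAJC3 1.69-fold lower (1.44 to 1.98). DNAJB11, another BiP partner, was at 8.26, 9.56 and 7.29 FPKM, 1.31-fold below youth in the adult library (1.09 to 1.57).

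DNAJB9, a BiP partner that holds the stress sensor IRE1 inactive, was highest in adult. It was at 29.9 FPKM in the kid library, 36.8 in youth and 45.7 in adult, higher at each step and 1.53-fold higher in adult than in kid (1.42 to 1.65). The other 8 ER members showed no difference beyond counting error from kid to youth or from youth to adult, and in adult against kid DNAJC10 (1.12-fold, 1.01 to 1.23) and DNAJB14 (1.45-fold, 1.03 to 2.05) were lower. DNAJB12, a membrane-bound Hsp40, was at 23.5, 22.4 and 23.8 FPKM, DNAJC10, a disulfide reductase, at 16.6, 15.4 and 14.9, and DNAJC14 at 12, 13.0 and 12.2. DNAJC25, DNAJC18, DNAJC16, DNAJC1 and DNAJB14 were between 2.20 and 5.32 FPKM in every library.

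The sum over the 13 ER members was 243.1 FPKM in the kid library, 280.1 in youth and 232.8 in adult. Secretory cells such as fibroblasts carry much ER, and their 4 markers are given beside these genes. All 4 (DCN, LUM, COL1A1 and PDGFRA) were lower in adult than in youth beyond counting error, where 27.0% of all entries were. Between youth and kid they split beyond counting error, with COL1A1 and LUM higher and DCN and PDGFRA lower. Of all entries 11.5% were higher and 26.9% lower there. The 4 summed to 606.1, 631.6 and 505.2 FPKM in kid, youth and adult. The 3 macrophage markers matched (C1QA, CSF1R and CD68) summed to 26.44, 30.06 and 14.19 FPKM. All 3 were lower in adult than in youth and in kid beyond counting error, where 27.0% and 34.6% of all entries were. None of these markers was at 0, and their part in the ER differences was not tested.

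Among the mitochondrial members, 8 of 10 were higher in the adult library than in youth, 6 of them beyond counting error. HSPD1 was lower beyond it, and over all entries 22.3% were higher and 27.0% lower beyond counting error. HSPA9, the mitochondrial Hsp70 also called mortalin, which pulls proteins through the inner membrane, was at 96.8 FPKM in the kid library, 85.3 in youth and 101 in adult. DNAJC19, an Hsp40 of the inner membrane, was at 116, 98.2 and 133 FPKM. DNAJA3, an Hsp40 of the matrix, was at 31.3, 28.5 and 37.2 FPKM, and DNAJC11, an Hsp40 tied to the cristae, at 17.8, 16.4 and 25.3. In all 4 youth was the lowest library and adult the highest, although for DNAJA3 and DNAJC11 youth and kid lay within counting error. Adult was above youth 1.18-fold for HSPA9 (1.14 to 1.22), 1.36-fold for DNAJC19 (1.26 to 1.46), 1.30-fold for DNAJA3 (1.17 to 1.46) and 1.54-fold for DNAJC11 (1.32 to 1.81). Against kid these ratios were 1.04, 1.14, 1.19 and 1.43, each beyond counting error.

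The partners of the mitochondrial chaperonin stood apart from each other. HSPD1, the Hsp60 barrel, was at 88.9 FPKM in the kid library, 101 in youth and 90.3 in adult, and was the 1 mitochondrial member that was highest in youth. The Hsp10 lid (HSPE1 by its product text) was at 218, 215 and 245 FPKM. HSPD1 was 1.12-fold below youth in the adult library (1.05 to 1.20), while HSPE1 was 1.14-fold higher (1.07 to 1.21). The level of HSPE1 over HSPD1 was 2.45 in kid, 2.13 in youth and 2.72 in adult. DNAJC4 was at 10.3, 6.88 and 9.42 FPKM, and youth was the lowest. DNAJC28 was at 11.9, 10.1 and 11.9 FPKM, DNAJC15, an Hsp40 of the import motor, at 6.07, 5.61 and 6.36, and DNAJC30 at 2.82, 2.66 and 2.08, all 3 within counting error in every comparison. The 10 mitochondrial members summed to 599.9 FPKM in the kid library, 569.9 in youth and 661.6 in adult. The summed level of the 5 muscle fibre genes given above was also highest in adult, though not every gene was. CKM lay within counting error between youth (19069 FPKM) and adult (18998), and DES between kid (4115) and adult (4138). The 3 smooth muscle markers (CNN1, MYH11 and ACTG2), which summed to 64.14, 40.13 and 68.13 FPKM, were lowest in youth. The 3 adipocyte markers matched (ADIPOQ, PLIN1 and LEP) summed to 77.74, 27.27 and 41.41 FPKM, also lowest in youth, and like DNAJB1 highest in kid. ADIPOQ and PLIN1 each had this order. LEP, at only 0.138, 0.219 and 0.385 FPKM, went the other way, lowest in kid and highest in adult. The part of these markers in the mitochondrial and DNAJB1 differences was not tested.

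Set side by side, the adult against youth differences lay higher for the mitochondrial members than for the others. The median difference on the log2(FPKM + 1) scale was 0.23 for the 10 mitochondrial members, -0.08 for the 13 ER members, -0.13 for 7 CCT subunits and -0.01 for the other 33 cytosolic members, beside -0.02 over the 12121 entries that averaged 1 FPKM or more. Beyond counting error, 6 mitochondrial members were higher and 1 lower, 1 ER member was higher and 4 lower, and of all 40 cytosolic members 10 were higher and 18 lower. Over all entries, 22.3% were higher and 27.0% lower beyond counting error. The groups and all entries were not matched for abundance. The mitochondrial median stayed between 0.21 and 0.26 under every alternative, while the ER median ranged from -0.21 to -0.04.

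A member was counted as apart where its log2(FPKM + 1) differed by at least 0.58, the log2 of 1.5. Between adult and youth 8 of 63 members were apart, against 10.9% of all entries. Of these 7 were lower (HSPA6, DNAJA1, DNAJB4, HSPH1, DNAJB5, DNAJC3 and HSPA5), where 5.45% of all entries were lower, and 1 was higher (DNAJC11), where 5.40% were. Against kid, adult had 4 members apart, against 9.24% of all entries. HSPA6, HSPH1 and DNAJB5 were lower (6.64% of all entries were) and DNAJB9 was higher (2.60%). Median-of-ratios scaling turned this split into 3 higher and 2 lower. Beyond counting error 14 members were higher and 23 lower, where 16.7% and 34.6% of all entries were. At 2-fold, HSPA6 between adult and youth was the 1 member apart in any comparison, where 2.08% of all entries were, beside 1.05% for youth against kid and 1.76% for adult against kid. As reported, both shares of members apart (8 of 63 and 4 of 63) lie near or below those of all entries. In the first of them 7 of the 8 were lower. How the first share compared depended on the treatment of low values. With a pseudocount of 5 it was 6 of 63, against 4.15% of all entries. At a minimum of 5 FPKM it was 8 of 51, against 10.2%. With a pseudocount of 0.1 it was 10 of 63, against 16.4%. Any pair of these comparisons shares 1 library.

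**Figure D3:**
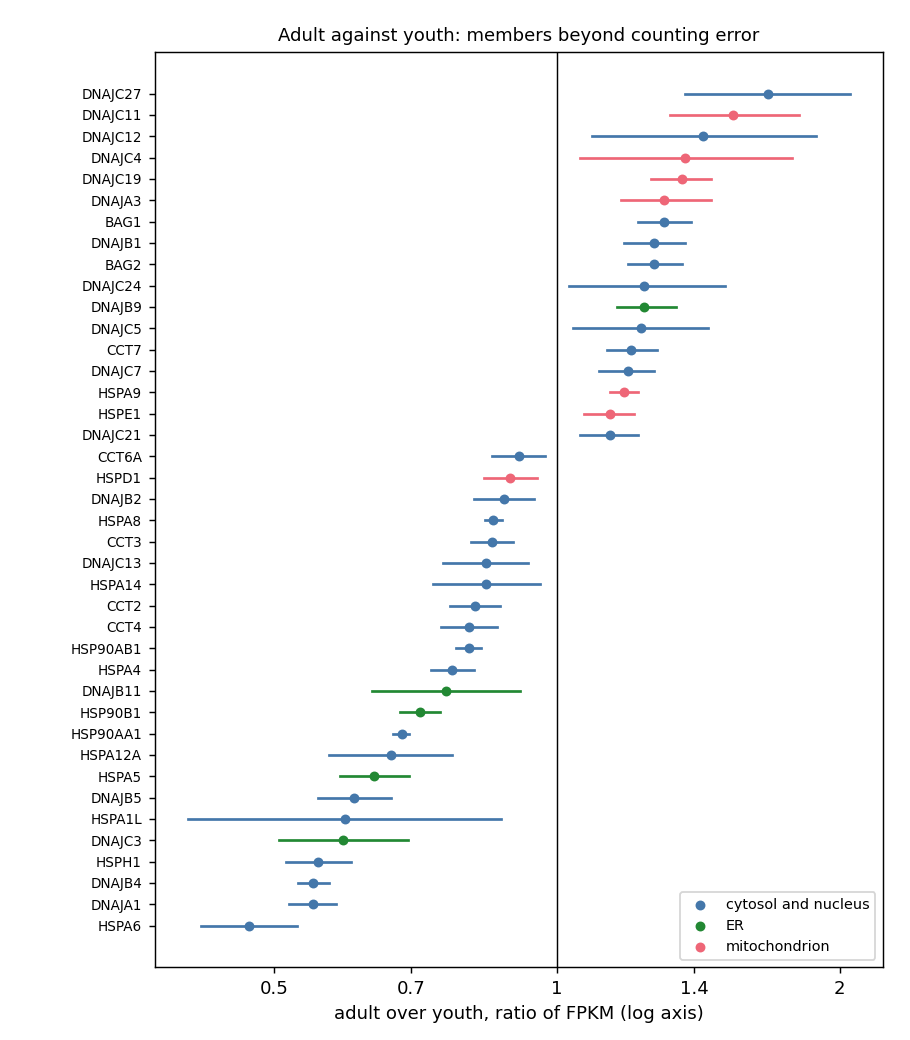
Ratio of FPKM in adult over youth (log axis) with exact 95% intervals of the reads, for the 40 members whose interval left out 1, coloured by place. HSPA6 lies lowest at 0.471, DNAJA1, DNAJB4 and HSPH1 follow between 0.550 and 0.557, and 6 of the 7 mitochondrial members shown lie above 1.

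Youth against kid showed the smallest differences. DNAJB1, lower in youth, was the only member apart among 63, where 5.27% of all entries were apart, 3.77% of all entries being lower. Beyond counting error, 15 members were higher and 7 lower, against 11.5% and 26.9% of all entries. Median differences were 0.11 for the ER members, -0.12 for the mitochondrial, 0.00 for CCT and 0.01 for the other cytosolic members, beside -0.08 over all entries. With median-of-ratios scaling the median over all 40 cytosolic members moved from 0.01 to 0.10. By library, 24 of 63 members had their highest value in youth, 25 in adult and 14 in kid, while over all entries 25.6%, 30.0% and 44.4% did. Within the rule, all 3 Hsp90 genes and 5 of 8 Hsp70 genes were highest in youth, and 7 of 10 mitochondrial members were highest in adult. Of these Hsp70 genes, HSPA6, HSPA14 and HSPA12A lay within counting error of kid, as did DNAJC28 and DNAJC15 of these mitochondrial members. Outside the rule, the mitochondrial Hsp90 (TRAP1) and the abundant inducible Hsp70 entries were highest in adult, HSPA12B in youth and HSPA13 in kid.

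**Figure D4:**
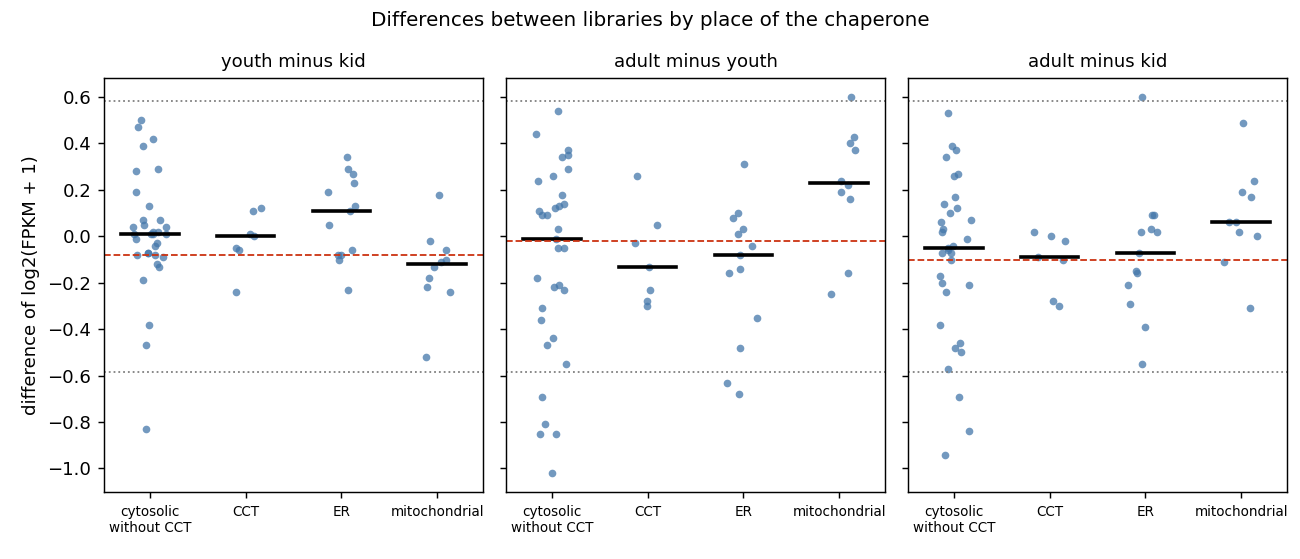
Difference of log2(FPKM + 1) for each pair of libraries, with 1 point per chaperone gene grouped by place, black bars for group medians, a dashed red line for the median of all 12121 entries and dotted lines at 1.5-fold. The mitochondrial median lies at 0.23 for adult minus youth, above the other groups, and at -0.12 for youth minus kid, below them.

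Genes of the same pathways outside the rule were listed in 3 groups, whose counts for adult against youth stand beside 22.3% of all entries higher and 27.0% lower beyond counting error. Among 27 co-chaperones and regulators of cytosolic Hsp70 and Hsp90, 12 were higher and 10 lower in adult than in youth beyond counting error, and 1 was apart. This was FKBP5, an Hsp90 co-chaperone of steroid receptors, at 90.2 FPKM in the kid library, 95.3 in youth and 54.7 in adult. It was apart between adult and kid as well. PTGES3, the Hsp90 co-chaperone p23, followed HSP90AA1 in its order at 131, 175 and 119 FPKM. UNC45B, which brings Hsp90 to myosin, was at 217, 181 and 239 FPKM and so lowest in youth, where HSP90AA1 was highest. HSF1, the main heat shock transcription factor, was at 19.9, 19.5 and 22.3 FPKM, with adult 1.14-fold above youth (1.02 to 1.29).

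Of 22 genes of ER folding and the unfolded protein response, 4 were higher and 7 lower in adult than in youth beyond counting error. XBP1, a transcription factor of that response, was the 1 apart, at 23.5 FPKM in the kid library, 23.9 in youth and 14.7 in adult. DDIT3, the stress factor CHOP, was the 1 apart between youth and kid, at 15.8 FPKM in youth against 25.4 in kid. CALR, the lectin chaperone calreticulin, had the order of HSPA5 at 87.4, 99.5 and 80.0 FPKM. ATF4, another stress factor, had the order of DNAJB9 instead, at 400, 467 and 511 FPKM.

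Of 13 genes of mitochondrial folding and proteolysis, 6 were higher and 1 lower in adult than in youth beyond counting error, none of them apart. CLPP, the matrix protease subunit, was at 32.7 FPKM in the kid library, 39.2 in youth and 57.8 in adult, and was the 1 apart between adult and kid (1.77-fold higher, 1.57 to 1.99). TRAP1, the mitochondrial Hsp90, was at 17, 13.5 and 20.1 FPKM, lowest in youth and highest in adult as HSPA9 was. TIMM44, which anchors HSPA9 at the import channel, was at 35.1, 31.0 and 46.3 FPKM, and GRPEL1, a nucleotide exchange factor of HSPA9, at 16.3, 15.4 and 22. Adult was above youth 1.49-fold for both TRAP1 (1.32 to 1.68) and TIMM44 (1.37 to 1.62), and 1.42-fold for GRPEL1 (1.27 to 1.60). GRPEL2, the other exchange factor listed, was at 4.42, 4.71 and 4.10 FPKM, within counting error in every comparison. The 1 lower was YME1L1, 1.10-fold below youth in the adult library (1.05 to 1.16). The median adult minus youth difference over the 13 was 0.06, beside -0.02 over all entries.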

How the data were processed

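RNA sequencing libraries of longissimus dorsi, 1 per stage, were deposited as a table of FPKM with 1 column per library, and the authors' values were used as deposited. FastQC, TopHat2 and DESeq are named without version or role, per the submitters' processing notes. Build, annotation, counting tool and the treatment of multiply matching reads: not given in the sources used here. No coordinates are printed for that reason. Names come from RefSeq (assembly ARS1.2) by gene number for 68 members and from the product text for 5. Product text, not gene number, names HSPE1.

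Reads, gene lengths and totals were recovered as the whole numbers that give the FPKM values of a gene in all libraries at once. This gave whole reads, to a tolerance of 5e-05 of a read and the rounding of the file, for each of 16054 entries found in 3 libraries and 1157 found in 2. The recovered reads made up 95.3%, 94.9% and 96.3% of the totals in kid, youth and adult. A common factor of reads and length is lost, which widens the interval. For a 1 kb gene, 3 reads amount to 0.190, 0.201 and 0.163 FPKM. Recovery and intervals were checked on simulated reads.

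Differences were taken on log2(FPKM + 1), which understates those of low genes, among entries with a mean of at least 1 FPKM. Ratios have exact (Clopper-Pearson) 95% intervals of the reads of 2 libraries, given their sum. The places of the proteins were assigned from general knowledge. The members, lists and thresholds were chosen with earlier results of these data known. Genes were named by a rule (the 12 most abundant, those at least 1.5-fold apart, and all ER, mitochondrial, CCT and BAG members), which gave 45. HSPA4, DNAJA4, HSPA12A, DNAJC12 and DNAJC27 were added after their values were seen, as were the pathway genes within 1.5-fold. Python 3.11.15, numpy 2.4.6, pandas 2.3.3, scipy 1.17.1 and matplotlib 3.10.9 were used.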

Additional observations from a re-analysis of the deposited data

How the results depend on the processing

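Pseudocounts of 0.1 and 5, no filter and a minimum of 5 FPKM, median-of-ratios scaling, quantile normalization and a 2-fold threshold were tried, together with lists widened by related entries or without CCT, both added after seeing the data. Of 21 recomputed counts 15 stayed within 1.5 times the reported one. Of 81 recomputed medians 77 stayed within an interval of the reported median taken from the ranks of its members. That interval is wide for small groups and for CCT runs from the lowest to the highest member, so staying within it says little. The ER median between adult and kid changed sign and still stayed within it. The count of members apart between youth and kid, reported as 1, was 2 with a pseudocount of 0.1, with no filter and with median-of-ratios scaling, and 0 at 2-fold. The counts of adult against youth and of adult against kid became 1 and 0 at 2-fold. Between adult and kid the split of 1 higher and 3 lower became 3 higher and 2 lower with median-of-ratios scaling. Between youth and kid the split became 1 higher and 1 lower with that scaling and with no filter. The cytosolic median between youth and kid, reported as 0.01, was 0.10 with median-of-ratios scaling and 0.06 with quantile normalization. With median-of-ratios scaling, the cytosolic median between adult and kid turned from -0.05 to 0.08, the CCT median from -0.09 to 0.04 and the ER median from -0.07 to 0.04 (0.07 with quantile normalization). That scaling moved the median over all entries from -0.10 to 0.02 between adult and kid. The cause of the other shifts was not tested. Under either scaling the sign changed for 16 members (youth against kid), 2 (adult against youth) and 14 (adult against kid), none of them reported at a size above 0.11. No paired analysis was possible because each stage has 1 library, and for the same reason no library could be left out. The lowest compared member, HSPA1L, rests on 75, 68 and 50 recovered reads in kid, youth and adult. DNAJC16 had 33, 29 and 39, where a common factor of reads and length may have been lost, as it may have been for any other member.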

Other observations

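Several chaperone entries have product texts that the choice of members does not take in, and the most abundant Hsp70 entries are among them. HSP70.1, an inducible Hsp70, was at 1147 FPKM in the kid library, 1396 in youth and 1446 in adult, above every member. A second entry described as a 70 kDa protein 1B copy was at 653, 734 and 783 FPKM. Both were highest in adult, 1.26-fold (1.24 to 1.28) and 1.20-fold (1.18 to 1.22) above kid, while HSPA6 and HSPH1 were lowest there. Both belong to the family of near-identical genes whose single values are uncertain.

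DNAJB6, an Hsp40 of the Z-disc that is mutated in a human limb-girdle muscular dystrophy, was at 83.4 FPKM in the kid library, 81.4 in youth and 117 in adult, 1.43-fold higher in adult than in youth (1.34 to 1.53). HSPA12B, an Hsp70 relative known from endothelium, was at 18.4, 28.2 and 17.9 FPKM, and its youth value was 1.53-fold above kid (1.4 to 1.68). The 4 endothelial markers listed (PECAM1, CDH5, KDR and VWF) summed to 145.2, 123.5 and 119.3 FPKM. All 4 were lower in youth than in kid, 3 of them beyond counting error, where 26.9% of all entries were. Their part in the HSPA12B difference was not tested. HSPA13, an Hsp70 of the ER, was at 6.69, 4.72 and 3.75 FPKM and thus lower at each step, with adult within counting error of youth.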
